A study of Mus musculus with 768 samples.

Results

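The genes of the proteasome were followed across single thymocytes of mice that lack, or were bred to lose, the transcription factor TCF1 and of wild-type mice. Members were all genes of the count table whose symbol begins with Psma, Psmb, Psmc, Psmd, Psme or Psmf and a digit, which gave 46 of 23127 genes. Of these, 45 encode proteasome subunits, assembly chaperones or regulators. The remaining member, Psmc3ip, meets the naming rule but encodes a cofactor of meiotic recombination. It was kept in the list shares, medians and counts, and its own values are also given. RNA had been sequenced from 768 single cells on 8 plates of 96 cells, 675 of which had at least 1000 detected genes and were kept. In the DN2-3 gate (CD45+, lineage-negative, CD4-, CD8-, CD25+), 1 plate each came from germline Tcf7-/- and Tcf7fl/fl Vav-cre mice, 2 plates came from Tcf7fl/fl Lck-cre mice and 1 plate came from wild-type (WT) mice. In the DN1 gate (CD45+, lineage-negative, CD4-, CD8-, CD25-, CD44+), 1 plate each came from Tcf7-/-, Tcf7fl/fl Vav-cre and WT mice. All mice were C57BL/6, aged 6 to 8 weeks, and every cell came from the thymus. Vav-cre acts in blood-forming cells from their earliest stages and Lck-cre in cells already entering the T lineage, and Lck-cre cells were sorted from the DN2-3 gate alone. The labels name no animal, so each plate is 1 library and no test between genotypes was run.

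The proteasome degrades proteins that carry ubiquitin chains. Its 20S core is a barrel of alpha rings around beta rings, and its 19S cap unfolds substrates with a ring of ATPases. Psmb6 (beta1), Psmb7 (beta2) and Psmb5 (beta5) carry the active sites of the constitutive core. Their counterparts Psmb9 (beta1i), Psmb10 (beta2i) and Psmb8 (beta5i) replace them in the immunoproteasome, which is prominent in cells of the blood lineage, is induced by interferon gamma and produces peptides for MHC class I. A further variant of beta5, Psmb11 (beta5t), is known from cortical epithelium of the thymus.

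The depth of the libraries limited how precisely a member could be placed. The 5 DN2-3 libraries held 4381685 to 8371808 counts and the 3 DN1 libraries 1547512 to 7112702, with 76 to 93 and 58 to 96 kept cells. Levels are given as counts scaled to a library total of 1000000 (CPM), and 95% intervals are exact and cover counting error only. Tcf7 itself, the gene of TCF1, had 122 CPM in Tcf7-/- DN2-3, 964 CPM in Vav-cre DN2-3, 762 and 658 CPM on the Lck-cre plates and 862 CPM in WT DN2-3. In the DN1 gate it had 98.6 CPM in Tcf7-/-, 368 CPM in Vav-cre and 134 CPM in WT. The labels do not say which exons are deleted, and counts outside a deleted part check nothing, so the Vav-cre and Lck-cre libraries are named here by their labels alone. The Tcf7-/- plates carry other label wording than the remaining plates and may form a batch, so batch and genotype cannot be told apart for them. The summed NK marker list (6 genes) reached 976 to 2723 CPM in DN1 libraries, against at most 14.5 CPM in DN2-3 libraries. In WT DN1, the library with the highest sum, 1 of the 6 genes, Ncr1, had no count. Whether cells positive for these markers were of the same type in each DN1 library was not tested. Markers of DN2 and DN3 thymocytes summed to 2362 to 4001 CPM in DN2-3 libraries, against 310 to 498 CPM in DN1 libraries. In summed libraries, fewer cells of a type and less RNA per cell cannot be told apart.

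The 46 members together took 1.40% of all counts in Tcf7-/- DN2-3, 1.21% in Vav-cre DN2-3, 1.22% and 1.27% on the Lck-cre plates and 1.13% in WT DN2-3. For DN1 the shares were 1.08% in Tcf7-/-, 0.970% in Vav-cre and 0.978% in WT. Every DN2-3 library thus lay above every DN1 library, and Tcf7-/- was highest within each gate. Among single DN2-3 cells the median share was 1.37% in Tcf7-/- (quartiles 1.14% and 1.52%) and 1.03% in WT (quartiles 0.836% and 1.22%). Members varied less between libraries than most genes above the same floor, without a match on abundance. Of 38 members with a median of at least 50 CPM, 27 (71.1%) stayed within 2-fold over all 8 libraries, against 1063 of 3233 genes (32.9%) at or above it. Between the 2 Lck-cre plates, the members at 50 CPM or more differed by a median of 0.12 on the log2 scale, against 0.25 for all such genes, and 95% of these members differed by less than 0.39. These plates are the only repeat of a genotype and gate, and the labels do not say whether they came from different mice, so this spread may be technical.

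**Figure D1:**
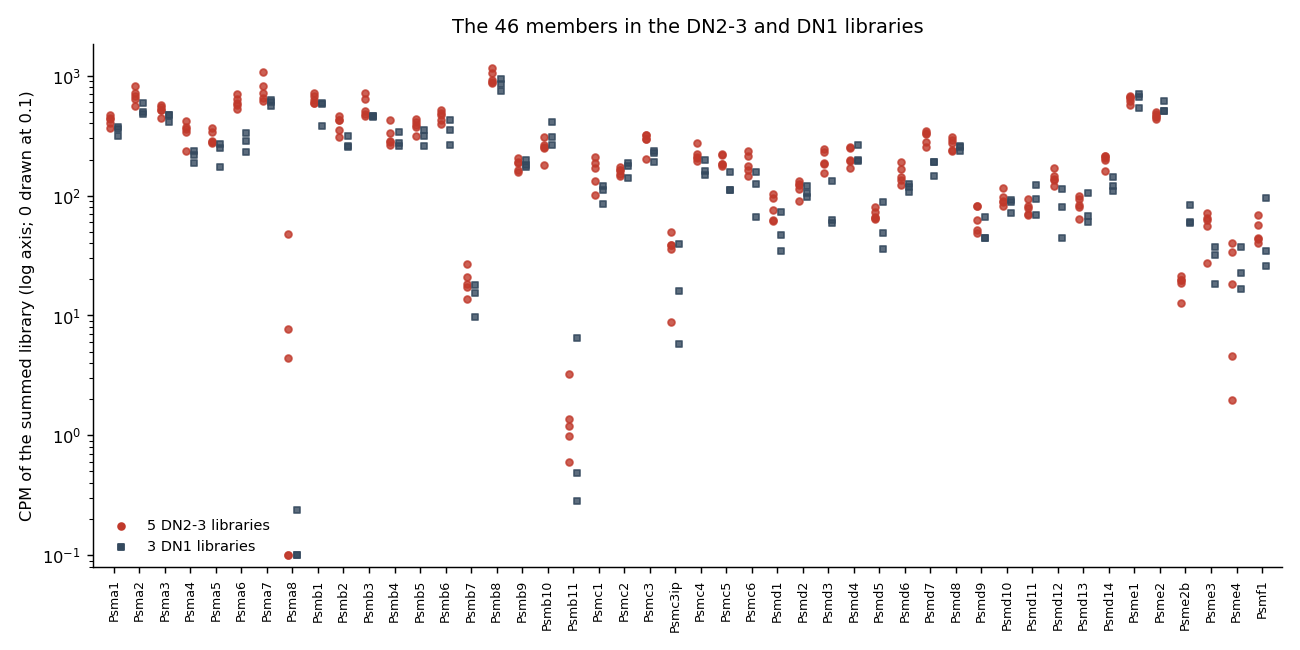
Level of each of the 46 members (CPM, log axis, 0 drawn at 0.1) in the 5 DN2-3 libraries (circles) and the 3 DN1 libraries (squares). Most members lie between 50 and 1000 CPM with library values close together, while Psma8, Psmb7, Psmb11, Psmc3ip, Psme2b and Psme4 lie lower or spread more.

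The promoters of both members of the beta5 pair and of the beta1 pair are shown because these genes moved apart in some of the results that follow. The beta2 pair is not shown because Psmb7 was not in the promoter table used. Each window runs from 250 bases before to 50 bases after the RefSeq start site (GRCm38.p6), and 39 of the 46 members were found in the RefSeq promoter table. Psmb8 lies at chr17:34197945-34198244 on the plus strand, and capitals mark a STAT site (TTCNNNGAA) 97 to 89 bases before the start. Psmb5 lies at chr14:54617946-54618245 on the minus strand, and capitals mark the core of an element bound by Nrf1 and Nrf2 (TGACNNNGC) 47 to 39 bases before the start. Psmb9 lies at chr17:34187281-34187580 on the minus strand and has no capitals because none of the motifs searched was in the window. Psmb6 lies at chr11:70525107-70525406 on the plus strand, with the Nrf element core 9 to 1 bases before the start.
Psmb8: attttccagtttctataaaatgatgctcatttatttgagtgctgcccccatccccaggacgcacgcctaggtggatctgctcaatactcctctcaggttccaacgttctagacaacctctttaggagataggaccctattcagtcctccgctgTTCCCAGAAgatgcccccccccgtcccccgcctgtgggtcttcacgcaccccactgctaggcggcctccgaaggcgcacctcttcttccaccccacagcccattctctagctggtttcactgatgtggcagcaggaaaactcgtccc
Psmb5: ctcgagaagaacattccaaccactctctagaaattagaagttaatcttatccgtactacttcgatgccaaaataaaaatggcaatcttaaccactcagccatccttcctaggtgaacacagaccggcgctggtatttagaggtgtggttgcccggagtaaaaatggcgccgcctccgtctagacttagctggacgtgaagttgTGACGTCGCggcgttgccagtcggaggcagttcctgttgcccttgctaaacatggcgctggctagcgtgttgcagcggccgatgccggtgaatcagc
Psmb9: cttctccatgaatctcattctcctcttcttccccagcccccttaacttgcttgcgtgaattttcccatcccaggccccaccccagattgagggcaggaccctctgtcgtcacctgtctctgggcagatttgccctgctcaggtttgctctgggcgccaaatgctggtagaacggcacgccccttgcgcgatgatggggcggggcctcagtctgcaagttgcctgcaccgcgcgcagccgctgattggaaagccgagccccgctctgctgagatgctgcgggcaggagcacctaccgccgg
Psmb6: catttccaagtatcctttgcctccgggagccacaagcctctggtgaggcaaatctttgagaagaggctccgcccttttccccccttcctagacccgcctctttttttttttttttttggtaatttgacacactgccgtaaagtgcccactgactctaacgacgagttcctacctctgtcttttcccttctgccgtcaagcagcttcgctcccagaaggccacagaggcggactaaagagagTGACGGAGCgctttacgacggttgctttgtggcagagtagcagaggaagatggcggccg
Both strands were searched for these motifs and for the core of the interferon-stimulated response element. The STAT site was in 8.30% of all 32851 windows, the Nrf element core in 12.4% and the interferon element core in 3.44%. Among the members, the STAT site was in Psmb8 and Psmd2, the Nrf element core in Psmb5, Psmb6, Psmc6, Psmd9, Psmd12 and Psme4, and the interferon element core in Psmb3, Psmd4, Psmd9 and Psme1. A match is a string of letters in the window and says nothing about binding. Matches also depend on the start site used. In the GENCODE annotation Psmb8 begins at 34197721 and Psmb9 at 34187764, both upstream of the windows shown.

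Of the constitutive catalytic subunits, Psmb5, with the chymotrypsin-like activity, had 440 CPM in Tcf7-/- DN2-3, 314 CPM in Vav-cre DN2-3, 414 and 391 CPM on the Lck-cre plates and 376 CPM in WT DN2-3. Among DN1 libraries, Psmb5 had 317 CPM in Tcf7-/-, 257 CPM in Vav-cre and 355 CPM in WT. Psmb6, with the caspase-like activity, had 518 CPM in Tcf7-/- DN2-3, 431 CPM in Vav-cre DN2-3, 490 and 467 CPM on the Lck-cre plates and 395 CPM in WT DN2-3. Both genes were highest in Tcf7-/- DN2-3 and lowest in Vav-cre DN1, and the gates overlapped for both. Psmb6 had 429 CPM in Tcf7-/- DN1, 263 CPM on the Vav-cre DN1 plate and 356 CPM on the WT DN1 plate. Psmb7, with the trypsin-like activity, stayed between 9.69 and 27 CPM in all 8 libraries and rested on 15 to 226 counts. Per kilobase of the main annotated transcript, its median of 15.1 CPM stood far below 407 CPM for Psmb5 and 539 CPM for Psmb6, although the core holds these subunits in equal numbers. In the annotation, 11.8% of the exon bases of Psmb7 lie opposite Nek6, and whether the counting used strand is not given in the sources used here.

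The immunoproteasome subunits were detected in every library. Psmb8 had 1048 CPM in Tcf7-/- DN2-3, 1154 CPM in Vav-cre DN2-3, 917 and 869 CPM on the Lck-cre plates and 887 CPM in WT DN2-3. In the DN1 gate it had 947 CPM in Tcf7-/-, 857 CPM in Vav-cre and 745 CPM in WT, so that WT was lowest. Psmb8 was detected in 91.4% or more of the cells in each library. Psmb9 was the steadiest of the catalytic genes, with its highest library 1.30 times its lowest. It had 187 CPM in Tcf7-/- DN2-3, 192 CPM in Vav-cre DN2-3, 163 and 157 CPM on the Lck-cre plates and 204 CPM in WT DN2-3, against 181 CPM in Tcf7-/- DN1, 199.7 CPM on the Vav-cre DN1 plate and 174 CPM in WT DN1. Psmb10 had 247 CPM in Tcf7-/- DN2-3, 180 CPM in Vav-cre DN2-3, 306 and 253 CPM on the Lck-cre plates and 266 CPM in WT DN2-3. It was highest in Tcf7-/- DN1, at 409 CPM, with 310.2 CPM on the Vav-cre DN1 plate and 263 CPM on the WT DN1 plate. Per kilobase, the medians over the libraries were 554 CPM for Psmb8, 202 CPM for Psmb10 and 136 CPM for Psmb9. By these values Psmb8 stood above Psmb5, Psmb10 above Psmb7 and Psmb9 below Psmb6. Of the 50-base stretches of Psmb5, 57.1% also occur in other genes, against 0% of those of Psmb8, so the level of Psmb5 is uncertain. Whether counts grew with transcript length, as the division by length assumes, was not tested. Psmb11 rested on 2 to 27 counts per library and stayed at or below 6.46 CPM. Of the thymic epithelium list (8 genes, Psmb11 included), 3 to 5 genes were at 0 in every library. The list summed to 86.5 to 285 CPM in DN2-3 libraries, highest in Vav-cre, and to 25.5 to 52.3 CPM in DN1 libraries. Foxn1, Krt5, Krt8 and Dll4 had no count in any DN2-3 library, and Prss16 had counts there in WT alone. The DN2-3 sums thus came from Epcam, Ccl25 and Psmb11, with Prss16 in WT.

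**Figure D2:**
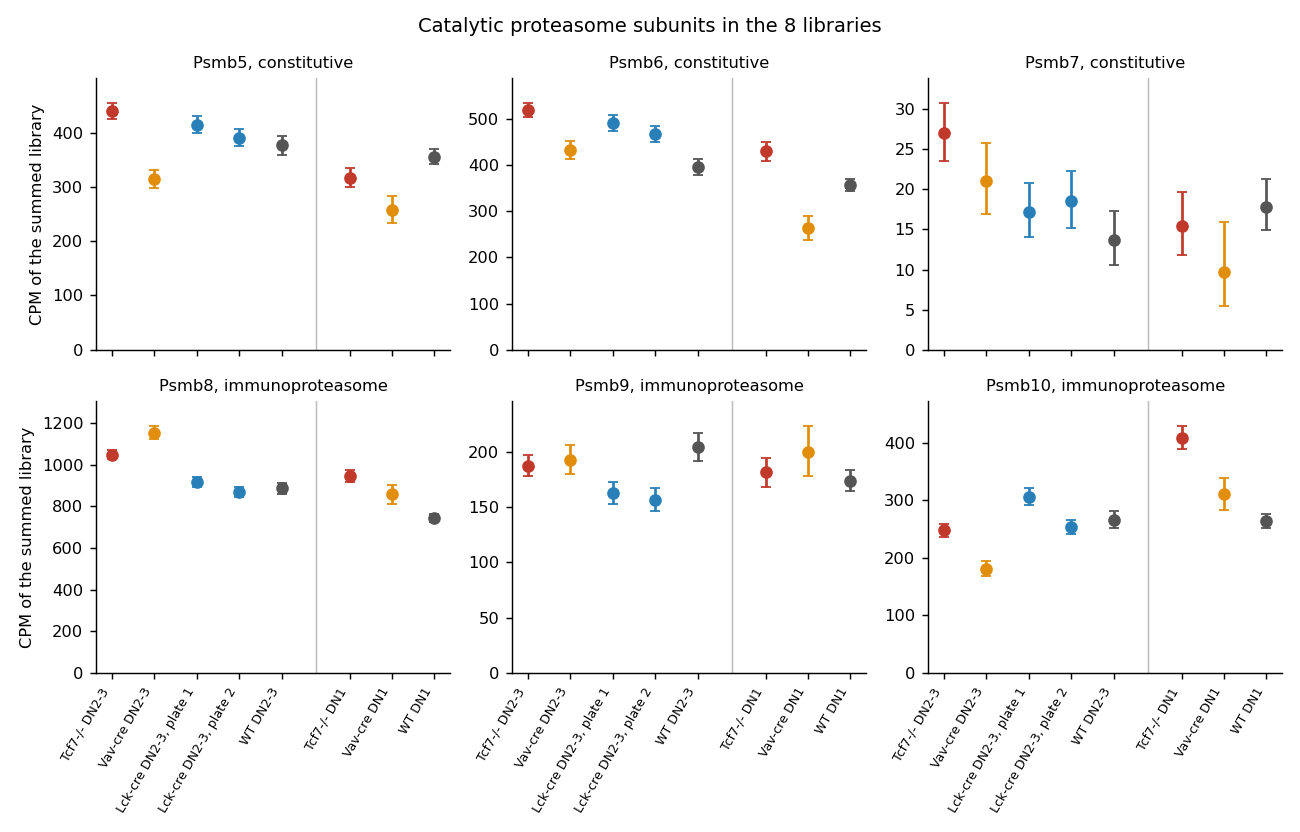
Level of the 6 catalytic subunit genes (CPM of the summed library, axis from 0, scale set per gene) in the 5 DN2-3 libraries on the left and the 3 DN1 libraries on the right of each panel. Bars are exact 95% Poisson intervals of the count. Psmb5 and Psmb6 are highest in Tcf7-/- DN2-3, and Psmb10 is highest in Tcf7-/- DN1.

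The balance between the sets was summarised as the share of Psmb8, Psmb9 and Psmb10 among the counts of all 6 catalytic genes, which can be compared between libraries but not read as a share of protein. It was 60.1% in Tcf7-/- DN2-3, 66.6% in Vav-cre DN2-3, 60.1% and 59.3% on the Lck-cre plates and 63.3% in WT DN2-3. In DN1 it was 66.9% in Tcf7-/-, 72.1% in Vav-cre and 61.9% in WT. The widest Clopper-Pearson interval, that of Vav-cre DN1, ran from 70.4% to 73.7%. In log2 units of the immunoproteasome to constitutive ratio, Tcf7-/- DN1 lay 0.32 above WT DN1 (95% interval of the difference 0.24 to 0.40) and Vav-cre DN1 0.67 above it (0.54 to 0.80). In the DN2-3 gate, Tcf7-/- lay at -0.20 relative to WT (-0.27 to -0.13), Vav-cre at 0.20 (0.12 to 0.29) and Lck-cre at -0.22 (-0.29 to -0.15). The Lck-cre value is the mean of both plates, while its interval comes from their pooled counts and leaves out the difference between them. The 2 Lck-cre plates differed by 0.04 (-0.03 to 0.12). The Vav-cre DN2-3 value turned to -0.25 when the 3 pair ratios were averaged, since the Psmb10 to Psmb7 pair stood at -1.18 while the Psmb8 to Psmb5 pair stood at 0.64. Single cells varied widely around these values: among WT DN2-3 cells with at least 10 catalytic counts, the quartiles of the share were 51.8% and 80.2%.

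**Figure D3:**
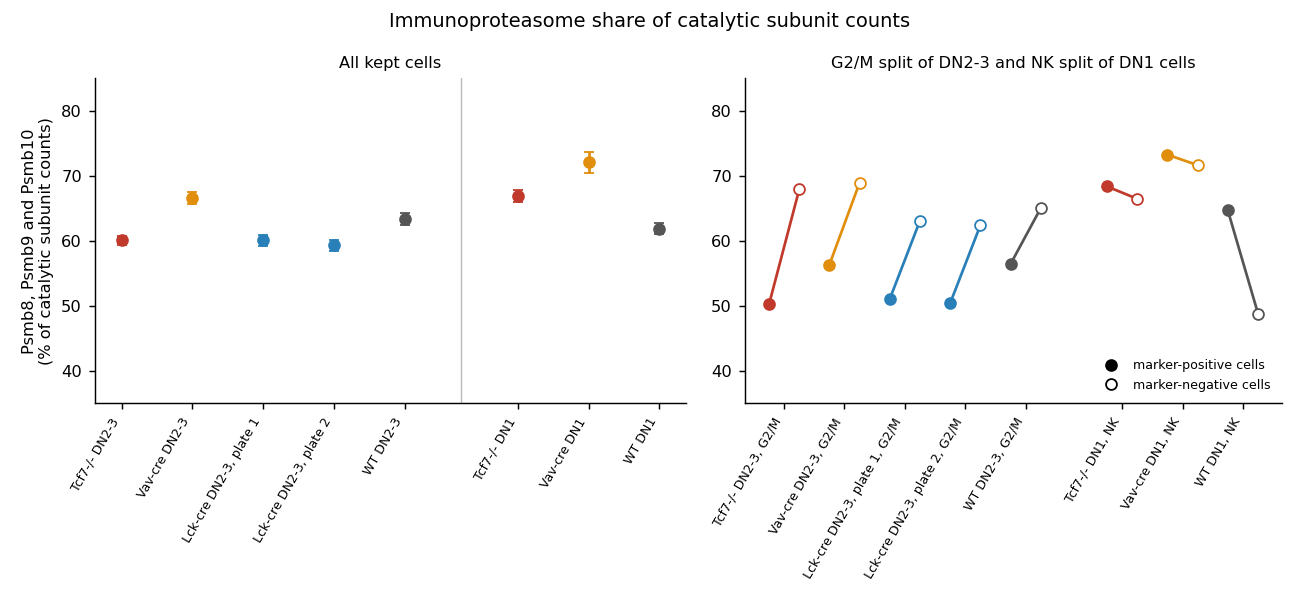
Psmb8, Psmb9 and Psmb10 as a percentage of the counts of all 6 catalytic genes. On the left are all kept cells with 95% Clopper-Pearson bars, and on the right G2/M marker-positive (filled) and marker-negative (open) DN2-3 cells and NK marker-positive and marker-negative DN1 cells. The share is lower in G2/M marker-positive cells in all 5 DN2-3 libraries and in WT DN1 it is 64.7% in NK marker-positive and 48.8% in NK marker-negative cells.

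Proteasome genes stood above the rest of the transcriptome in Tcf7-/- DN2-3 cells relative to WT DN2-3 cells. Of the 44 members at 10 CPM or more in either library, 43 had a log2 ratio above the median of all 8255 genes measured there, and 35 were above 0, where 39.5% of all genes were. The list median was 0.25, against -0.17 for all genes (log2 of CPM plus a pseudocount of 10, which understates changes of low genes). No member differed 2-fold in either direction, where 3.19% of all genes were higher and 10.5% lower. All 6 19S ATPase genes, which unfold substrates, lay above 0 (0.18 to 0.64), as did 6 of the 7 alpha ring genes measured, all 4 noncatalytic beta genes and all 3 constitutive catalytic genes. Of the 3 immunoproteasome genes, Psmb8 alone lay above 0, and 3 of the 6 activator and inhibitor genes did, with a median of 0.01. Among members at 50 CPM or more, the highest ratios were those of Psma4 and Psma7, subunits of the alpha ring, and of Psmc3, a 19S ATPase. Psmb7, below that level, also stood at 0.64. Psma4 had 421 CPM in Tcf7-/- and 237 CPM in WT (0.80). Psma7 had 1067 CPM in Tcf7-/- and 618 CPM in WT (0.78). Psmc3 had 323 CPM in Tcf7-/- and 204 CPM in WT (0.64). The lowest were Psmd7, a partner of the deubiquitinase of the lid (-0.27), Psmd10, the assembly chaperone gankyrin (-0.13), and Psmb9 (-0.12). With edgeR's TMM scaling, which shifts nearly all ratios alike, the median of all genes was 0.03 and that of the members 0.48. Under it Psmb9 stood at 0.11, Psmb10 at 0.13 and Psmd10 at 0.09, so the signs of these genes depended on the scaling. With the deposited log2 values Psmb9 stood at 0.41 and Psmb10 at 0.52.

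The Tcf7-/- DN2-3 library also held more cells with G2/M markers. Cells with 6 or more counts of at least 5 of 20 G2/M genes made up 26.9% of kept cells in Tcf7-/-, against 6.82% in WT, and the median depth per kept cell was 70003 counts in Tcf7-/-, against 43592 counts in WT. Without those cells the list median was 0.21, and the immunoproteasome to constitutive difference of -0.20 became 0.19, with shares of 67.9% in Tcf7-/- and 65% in WT. The parts of depth and of the batch in the list median were not tested.

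In Vav-cre DN2-3 cells the members stayed near WT, with a list median of 0.04 against -0.14 for all 8357 genes, and 31 of 45 members above that gene median. The 3 members at least 2-fold different were 1 higher and 2 lower, where 5.77% of all genes were higher and 10.5% lower. Psma8, an alpha ring subunit best known from testis, had 48.2 CPM in Vav-cre and 4.42 CPM in WT (2.01). Its 211 counts in Vav-cre DN2-3 were spread over 27 of 76 cells, the highest of which held 9.48% of them, while 64 counts in Tcf7-/- DN2-3 came from 7 of 93 cells and 22 counts in WT from 2 of 88 cells. On the Lck-cre plates no count of Psma8 was found, which allows at most 0.604 and 0.632 CPM. The DN1 libraries held 1 count of it in all. After thinning every cell to 10000 counts, Psma8 was found in 26.2% of Vav-cre DN2-3 cells, 3.37% of Tcf7-/- DN2-3 cells and 1.25% of WT DN2-3 cells, with 4 to 11 shallower cells left out per library. Psme4, the nuclear activator PA200, had 4.56 CPM in Vav-cre and 34.2 CPM in WT (-1.60), from 6 cells in Vav-cre and 23 in WT. Psmc3ip had 8.90 CPM in Vav-cre and 35.8 CPM in WT (-1.28), from 6 cells in Vav-cre and 16 in WT. The other extremes were Psmd3, a lid subunit, with 245 CPM in Vav-cre and 153 CPM in WT (0.64), followed by Psma4 (0.57) and Psmc3 (0.52). At the low end stood Psme3, the nuclear activator REGgamma, with 27.2 CPM in Vav-cre and 62.9 CPM in WT (-0.97), then Psmd1 (-0.65) and Psmb10 (-0.54). Erythroid markers summed to 797 CPM in Vav-cre DN2-3 and 56.9 CPM in WT DN2-3, with 1 of the 4 genes at 0 in Vav-cre and 2 in WT, and their part in these values was not tested.

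In Lck-cre DN2-3 cells most members again lay above the median gene. The list median was 0.14, against -0.08 for all 8447 genes, and 36 of 44 members lay above the gene median. Psme4 was the single member past 2-fold, where 0.935% of all genes were higher and 3.48% lower. It had 1.96 and 18.5 CPM on the Lck-cre plates and 34.2 CPM in WT (-1.26), and the plates differed from each other by 1.25 on the log2 scale, as much as from WT. Without plate 1 its value was -0.63. Psma4 had 340 and 376 CPM on the Lck-cre plates and 237 CPM in WT (0.57), and Psmc3 had 295 and 321 CPM on the Lck-cre plates and 204 CPM in WT (0.57). Psma4 and Psmc3 were thus among the 3 highest members above 50 CPM in all comparisons of the DN2-3 gate, which share the WT library. Psmc1, another 19S ATPase, followed at 0.49. Psmd1, the scaffold subunit of the 19S base, had 75.4 and 62 CPM on the Lck-cre plates and 103 CPM in WT (-0.53), with Psmb9 (-0.34) and Psmd13 (-0.33) next.

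**Figure D4:**
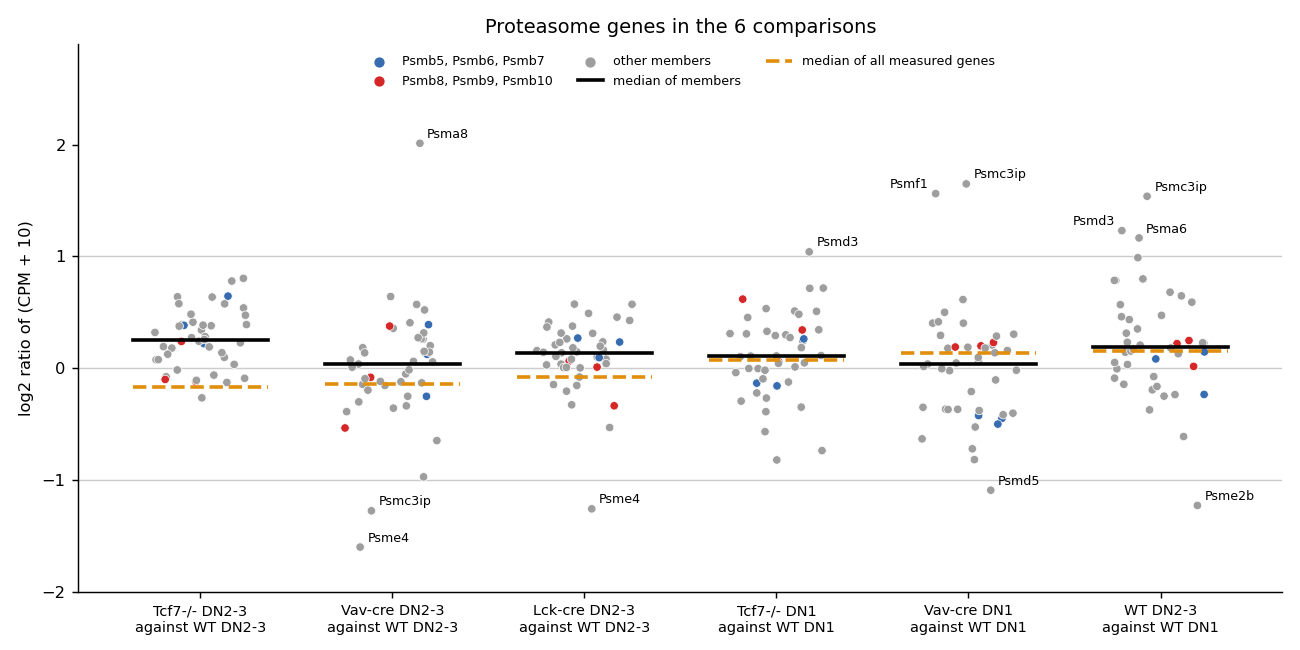
Log2 ratio (CPM plus 10) of each measured member in the 6 comparisons. Blue points are Psmb5, Psmb6 and Psmb7, red points Psmb8, Psmb9 and Psmb10 and grey points the other members; black lines are the median of the members, broken lines that of all measured genes, and members past 2-fold are named. In Tcf7-/- DN2-3 the member median of 0.25 lies above the gene median of -0.17, and in the DN1 comparisons both medians lie close together.

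Among DN1 cells the members as a list lay near the other genes in the main setting. With the deposited log2 values the list medians were 0.38 in Tcf7-/- and -0.45 in Vav-cre. The medians of all genes were then 0.09 in Tcf7-/- and -0.13 in Vav-cre. In Tcf7-/- DN1 the list median was 0.11, against 0.07 for all 8579 genes, and 24 of 44 members lay above that gene median. Psmd3 was the single member past 2-fold, with 133 CPM in Tcf7-/- and 59.6 CPM in WT (1.04), where 10.4% of all genes were higher and 5.34% lower. Between NK marker-positive cells its difference was -0.11 and between NK marker-negative cells 1.26. Among members at 50 CPM or more with a count in at least 20% of cells, Psmd13, a lid subunit (0.72), and Psmb10 (0.62) came next. Psmd13 turned to -0.23 between NK marker-negative cells, with 104 CPM in Tcf7-/- and 123 CPM in WT, while Psmb10 stood at 0.54 between marker-positive and 0.77 between marker-negative cells. At the low end Psmd5, an assembly chaperone of the 19S base, had 49.1 CPM in Tcf7-/- and 88.4 CPM in WT (-0.74). Its direction differed by cell class. Marker-positive cells had 16 CPM in Tcf7-/-, from 19 counts, and 101 CPM in WT (-2.09). Marker-negative cells had 62.2 CPM in Tcf7-/- and 14.7 CPM in WT (1.55), the WT value from 15 counts in 17 cells. Psmd4, a ubiquitin receptor (-0.39), and Psmd14, the deubiquitinase of the lid (-0.35), were also low. In Vav-cre DN1 the list median was 0.04, against 0.13 for all 8798 genes, with 19 of 44 members above the gene median. Over 12 other settings this list median ran from -0.45 to 0.08 and kept its sign in 5. Between NK marker-negative cells it was -0.14, against 0.17 for all genes. Between NK marker-positive cells it was -0.003, against -0.27 for all genes. In the main setting 2 members were 2-fold higher and 1 lower, where 18% of all genes were higher and 9.64% lower. Psmf1, the inhibitor PI31, had 96.3 CPM in Vav-cre and 26 CPM in WT (1.56), from 15 cells in each library. Psmc3ip had 39.4 CPM in Vav-cre and 5.76 CPM in WT (1.65), from 6 cells in Vav-cre and 4 in WT. Psmd5 had 36.2 CPM in Vav-cre and 88.4 CPM in WT (-1.09), from 9 cells in Vav-cre and 34 in WT, and it stood at 0.66 between NK marker-negative cells. Psma5 (0.61) and Psme2b (0.41) were the next highest by the same rule, and Psmc6, a 19S ATPase (-0.82), and Psmd12, a lid subunit (-0.72), the next lowest. The constitutive genes Psmb5 (-0.45), Psmb6 (-0.42) and Psmb7 (-0.50) were all below WT DN1 and the immunoproteasome genes Psmb8 (0.20), Psmb9 (0.19) and Psmb10 (0.23) all above it. Neither cell class alone showed this full separation. Between NK marker-positive cells Psmb5 stood at 0.07 and Psmb6 at 0.04, and between NK marker-negative cells Psmb8 stood at -0.05. The Vav-cre DN1 library was the shallowest, and NK marker-positive cells made up 29.2% of kept cells in Tcf7-/- DN1, 19% in Vav-cre DN1 and 80.2% in WT DN1. Other summed marker lists also differed between the DN1 libraries, with at most 2 of the 5 to 8 genes of each at 0. Markers of innate lymphoid cells reached 4789 CPM in Tcf7-/-, 8672 CPM in Vav-cre and 3856 CPM in WT, and those of early progenitors 659 CPM in Tcf7-/-, 501 CPM in Vav-cre and 89.7 CPM in WT. Dendritic markers reached 348 CPM in Tcf7-/-, 1930 CPM in Vav-cre and 998 CPM in WT, and myeloid markers 51.4 CPM in Tcf7-/-, 241 CPM in Vav-cre and 8.30 CPM in WT. B cell markers reached 399 CPM in Tcf7-/-, 458 CPM in Vav-cre and 198 CPM in WT, and mature T cell markers 119 CPM in Tcf7-/-, 30.4 CPM in Vav-cre and 739 CPM in WT. The part of these other lists in the DN1 differences was not tested.

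Between gates, 9 of 45 members (20%) had all 5 DN2-3 libraries above all 3 DN1 libraries, where 11.5% of 10212 genes did, and 2 had all below, where 13.1% did. The higher ones came from the alpha ring (Psma4, Psma5, Psma6), the beta ring (Psmb3), the ATPases (Psmc5) and the lid (Psmd3, Psmd7, Psmd12, Psmd14). Psma6 had 706 CPM in Tcf7-/-, 635 CPM in Vav-cre, 573 and 592 CPM in Lck-cre and 529 CPM in WT DN2-3, against 332 CPM in Tcf7-/-, 284 CPM in Vav-cre and 230 CPM in WT DN1. Psmd7 ranged over 254 to 345 CPM in DN2-3 and 145 to 192 CPM in DN1, and Psmd3 over 153 to 245 CPM in DN2-3 and 59.6 to 133 CPM in DN1. The members that were lower were Psme2 and Psme2b. Psme2, the beta subunit of the interferon-inducible activator PA28, had 439 to 501 CPM in DN2-3 and 506 to 613 CPM in DN1. Psme2b, a near copy of it, had 12.7 to 21.5 CPM in DN2-3 and 59.1 to 83.4 CPM in DN1. Of the 50-base stretches of Psme2b, 69.3% also occur in other genes, chiefly Psme2. For Psme2 this share was 59.3%, chiefly in Psme2b, so the counts of both are uncertain. Among the higher members it was 55.8% for Psmb3, 54.5% for Psma5 and 25.6% for Psma4, so their counts are uncertain as well. For the rest of the higher members it was at most 1.61%. With every library included, no catalytic gene separated the gates. Without both Tcf7-/- libraries, Psmb6 and Psmb8 were among 15 of 45 members above, where 19.7% of genes were. With NK marker-negative DN1 cells alone the count above was 2 (Psma6 and Psmd5), where 10.1% of genes did so, and without the Vav-cre DN1 library it was 15, against 15.7%.

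Between the WT libraries alone, the list median was 0.19 in DN2-3 relative to DN1, against 0.15 for all 8702 genes. Of the 44 members, 3 were 2-fold higher and 1 lower, where 16.3% of all genes were higher and 11.7% lower. They were Psma6 (1.17), Psmd3 (1.23), Psmc3ip, with 35.8 CPM in DN2-3 and 5.76 CPM in DN1 (1.54), and Psme2b, with 19.9 CPM in DN2-3 and 60.03 CPM in DN1 (-1.23). Psmd1 was next at 0.99, with 103 CPM in DN2-3 and 47.1 CPM in DN1. Psmd4 (-0.61) and Psmd11 (-0.37) were the lowest after Psme2b. The immunoproteasome to constitutive difference was 0.09 (0.02 to 0.17). It was -0.084 with NK marker-positive DN1 cells alone and 0.86 with NK marker-negative DN1 cells alone. Within Tcf7-/- the list median was 0.44 in DN2-3 relative to DN1, against -0.12 for all genes, and 39 of 44 members lay above the gene median. Within Vav-cre these medians were 0.24 and -0.18, with 36 of 45 members above. The immunoproteasome to constitutive ratio stood at -0.42 (-0.50 to -0.35) in Tcf7-/- and -0.37 (-0.51 to -0.24) in Vav-cre.

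Within each DN2-3 library, cells positive for G2/M markers were set against the others, which compares cells of the same plate. They numbered 25 in Tcf7-/-, 8 in Vav-cre, 8 and 9 on the Lck-cre plates and 6 in WT. The immunoproteasome share was lower in the marker-positive cells of all 5 libraries. In marker-positive cells it was 50.2% in Tcf7-/-, 56.3% in Vav-cre, 51% and 50.4% on Lck-cre plates 1 and 2 and 56.4% in WT. In marker-negative cells it was 67.9% in Tcf7-/-, 68.9% in Vav-cre, 63.1% and 62.4% on Lck-cre plates 1 and 2 and 65% in WT. On the log2 scale the difference of the ratio was -0.76 ± 0.20 (SD, n = 5 libraries), with values between -1.07 and -0.52. As the mean of the 3 pair ratios it was 0.01 in WT and between -1.26 and -0.62 in the other libraries, and with markers counted from 1 count it was -0.14 in WT. The summed constitutive genes were higher by 0.53 ± 0.14 and the summed immunoproteasome genes differed by -0.23 ± 0.22. With 5 libraries a two-sided sign-flip test cannot give a p below 0.0625, so none is given.

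Psmb6 and Psmb10 showed the split most plainly. In marker-positive cells Psmb6 had 642 CPM in Tcf7-/-, 587 CPM in Vav-cre, 777 and 705 CPM on Lck-cre plates 1 and 2 and 492 CPM in WT. In marker-negative cells Psmb6 had 408 CPM in Tcf7-/-, 398 CPM in Vav-cre, 411 and 395 CPM on Lck-cre plates 1 and 2 and 372 CPM in WT. The peptidase Psmb10 had 157 CPM in marker-positive cells of Tcf7-/-, 96.5 CPM in Vav-cre, 244 and 177 CPM on Lck-cre plates 1 and 2 and 158 CPM in WT. Its marker-negative cells had 328 CPM in Tcf7-/-, 198 CPM in Vav-cre, 323 and 276 CPM on Lck-cre plates 1 and 2 and 292 CPM in WT. Marker-positive cells lay above marker-negative cells for Psmb6, and below them for Psmb10, in all 5 libraries. Psmb5 was higher (0.20 to 0.65) and Psmb9 lower (-0.51 to -0.07) in marker-positive cells of all 5 libraries, whereas Psmb8 had 842 CPM in marker-positive Tcf7-/- cells, against 1233 CPM in marker-negative ones, and lay between -0.03 and 0.10 in the other libraries. Psmb7 went either way.

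Over the whole list, the median in marker-positive cells was 0.21 ± 0.04 above marker-negative cells (SD, n = 5 libraries; 0.14 to 0.26), against -0.30 to -0.10 for all genes. Of 43 members measured in every library, 11 were higher in all 5, where 11% of 6352 genes were, and 3 were lower in all 5, where 16.8% were. The 11 were Psma1 and Psma6 of the alpha ring, Psmb5 and Psmb6, the ATPases Psmc3 and Psmc4, the 19S subunits Psmd2, Psmd6, Psmd12 and Psmd14, and Psmc3ip. The 3 were Psmb9, Psmb10 and Psme2b. Psmd12 had 216 CPM in marker-positive and 132 CPM in marker-negative Tcf7-/- cells, and 283 CPM in marker-positive and 112 CPM in marker-negative WT cells. Marker-positive cells were deeper, with a median of 103596 to 154129 counts, against 41097 to 54920 counts for the marker-negative cells. Against marker-negative cells at least as deep as the shallowest positive cell of their library, 10 of 42 members (23.8%) were higher, where 10.2% of 6173 genes were, and the same 3 (7.14%) lower, where 13.4% were, and the ratio differed by -0.72.

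**Figure D5:**
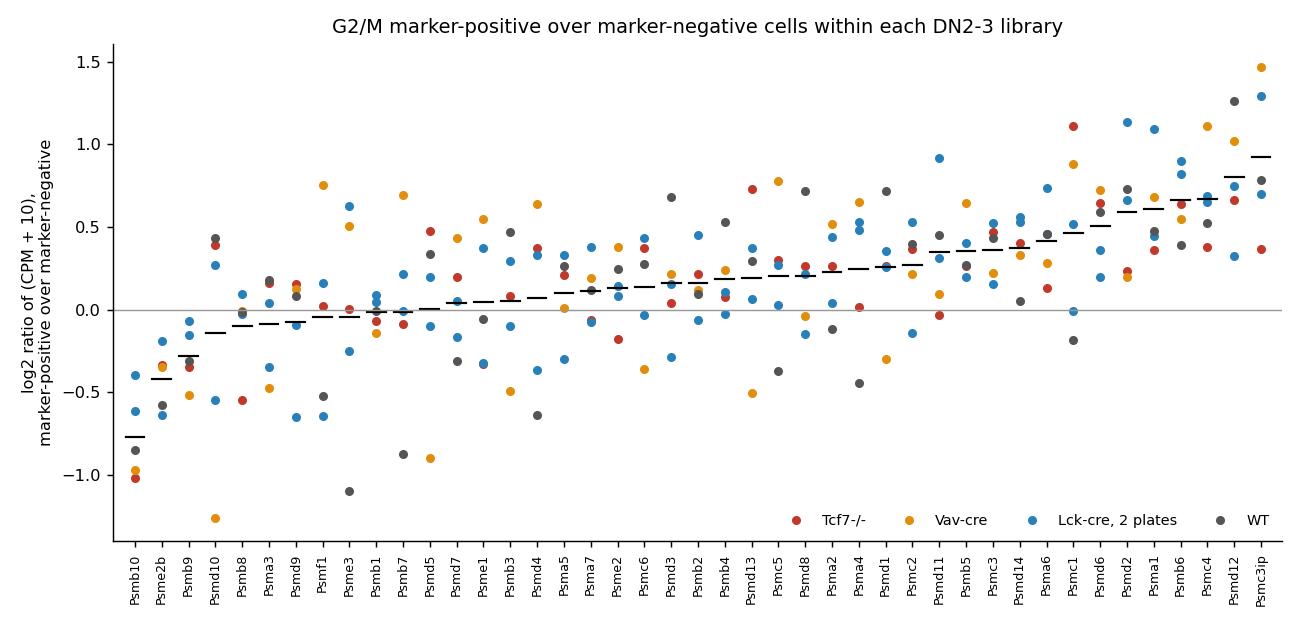
Log2 ratio (CPM plus 10) of G2/M marker-positive over marker-negative cells within each of the 5 DN2-3 libraries for the 43 members measured in all of them, ordered by their mean (bars). Psmb10, Psme2b and Psmb9 lie below 0 in every library, and 11 members, Psmb5 and Psmb6 among them, lie above 0 in every library.

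In the DN1 gate, cells with 6 or more counts of at least 2 of 6 NK marker genes were set against the rest of their library. They numbered 28 of 96 cells in Tcf7-/-, 11 of 58 in Vav-cre and 69 of 86 in WT. The immunoproteasome share of marker-positive cells was 68.4% in Tcf7-/-, 73.3% in Vav-cre and 64.7% in WT. That of marker-negative cells was 66.5% in Tcf7-/-, 71.6% in Vav-cre and 48.8% in WT. The log2 difference of the ratio was thus 0.12 (-0.03 to 0.28) in Tcf7-/-, 0.12 (-0.15 to 0.39) in Vav-cre and 0.94 (0.81 to 1.07) in WT, and the intervals of Tcf7-/- and Vav-cre include 0. Thinning the cells gave -0.07 for Tcf7-/- and equal weights per cell gave -0.12, and the Vav-cre value was -0.51 among cells with 2000 or more detected genes. In WT the difference lay in the constitutive genes more than in Psmb8. Psmb6 had 317 CPM in marker-positive and 591 CPM in marker-negative WT cells, and Psmb5 had 316 CPM in marker-positive and 586 CPM in marker-negative WT cells. Psmb8 had 737 CPM in marker-positive and 797 CPM in marker-negative WT cells. With the marker-negative DN1 cells alone, of which WT had 17, the Tcf7-/- difference from WT in the ratio was 1.06 and that of Vav-cre 1.41. Of 42 members, Psmd4 was higher in marker-positive cells of all 3 libraries, where 11.1% of 6856 genes were, and 6 were lower, where 19.1% were (Psmc4, Psmc5, Psmd1, Psmd7, Psmd9 and Psmd11).

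Among 38 further genes of the pathway (assembly factors, transcriptional regulators, ubiquitin and shuttle genes, interferon and peptide presentation genes), 0 to 2 were 2-fold higher and 0 to 4 lower in each comparison. Of 36 measured in the DN2-3 gate, 1 was higher and 2 lower in Tcf7-/- relative to WT, where 3.19% and 10.5% of all genes were. In Vav-cre 1 was higher and 2 lower, where 5.77% and 10.5% of all genes were, and in Lck-cre none was higher and 2 were lower, where 0.935% and 3.48% were. Nfe2l1, which encodes the transcription factor Nrf1 that induces proteasome genes, was the lower gene in all of these, with 19 CPM in Tcf7-/-, 20.1 CPM in Vav-cre, 49.9 and 21.7 CPM on the Lck-cre plates and 85 CPM in WT. All libraries other than WT lay below WT, and the log2 ratios, which share the WT library, were -1.71 in Tcf7-/-, -1.66 in Vav-cre and -1.12 in Lck-cre. Without plate 2 the Lck-cre value was -0.67, short of 2-fold, and without plate 1 it was -1.58. In DN1, Nfe2l1 had 68.8 CPM in Tcf7-/-, 184 CPM in Vav-cre and 38.1 CPM in WT. Psmg1, an assembly chaperone of the alpha ring, had 92.9 CPM in Tcf7-/- DN2-3 and 23.7 CPM in WT DN2-3 (1.61). Ifngr1, a chain of the interferon gamma receptor, had 266 CPM in Tcf7-/- DN2-3 and 611 CPM in WT DN2-3 (-1.17). Nlrc5, the transactivator of MHC class I genes, had 69.6 CPM in Vav-cre DN2-3 and 17.7 CPM in WT DN2-3 (1.52). Nploc4, a cofactor of the segregase p97, was lower in Vav-cre DN2-3 (-1.04), and Ubqln4, a shuttle factor, was lower in Lck-cre DN2-3 (-1.05; -1.12 without plate 1 and -0.99 without plate 2).

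Of 35 pathway genes measured in DN1, none passed 2-fold in Tcf7-/- relative to WT, where 10.4% of all genes were higher and 5.34% lower. In Vav-cre 2 were higher and 4 lower, where 18% and 9.64% of all genes were. The higher ones were Nfe2l1 (2.01) and Ifngr2 (1.33). The lower ones were the assembly chaperones Psmg2 (-1.60) and Psmg3 (-1.64), Ddi2, the protease that activates Nrf1 (-1.21), and Ubqln1 (-1.26). Between the WT libraries, the MHC class I genes H2-K1 and H2-D1 were the 2 of 35 past 2-fold, both lower, where 11.7% of all genes were. H2-K1 had 778 CPM in DN2-3 and 2638 CPM in DN1 (-1.75), and H2-D1 had 713 CPM in DN2-3 and 2430 CPM in DN1 (-1.75), while Psmb8, Psmb9 and Psmb10 lay between 0.02 and 0.25 in the same comparison.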

How the data were processed

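Per the labels' protocols, single-cell cDNA was amplified by a modified STRT protocol, with Smart-seq2 also named, and sequenced as paired ends. Per the submitters' processing notes, the tools were TopHat2 2.1.1 for alignment and HTSeq for counting, on mm10, which 576 of the 768 entries also give as GRCm38. Whether molecular identifiers were collapsed, or strand used, is not given in the sources used here. The authors deposited whole-number raw counts for each gene in each cell, and log2 values of the same cells that served as an alternative. Of 23154 entries, 27 with a date in place of a symbol (0.141% of counts) were dropped.

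Cells were kept from 1000 detected genes upwards, and their counts summed per library and scaled to CPM. Log2 ratios used a pseudocount of 10 CPM over genes reaching 10 CPM in either compared library, and the Lck-cre value is the mean of both plates. Each genotype and gate is 1 library except Lck-cre DN2-3, so no test or p-value is given. Intervals are 95% (Poisson for counts, Clopper-Pearson for shares, exact conditional for ratios) and cover counting error only, since amplified reads are not independent molecules. The upper limit for a gene without counts is the upper end of the same Poisson interval. No doublet caller was run on these singly sorted cells, and no 2 cells had identical profiles. Barcode numbers 1 to 96 recur on every plate and name wells. Named members are the 6 catalytic genes, those at least 2-fold different and the 3 highest and 3 lowest at 50 CPM or more with a count in at least 20% of cells of the higher library. Further genes of the pathway were named where they differed 2-fold. The members and lists were chosen with earlier results of these data known. Gene positions and exon overlaps are from GENCODE for GRCm38, and promoters from RefSeq GRCm38.p6. Software was Python 3.11.15, pandas 2.3.3, SciPy 1.17.1, R 4.3.3, edgeR 4.0.16 and DESeq2 1.42.0, the last 2 for scaling factors alone. The calculations were tested on simulated data with known fold changes.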

Additional observations from a re-analysis of the deposited data

Results flagged for a closer look

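The immunoproteasome to constitutive ratio moved in opposite directions in the Tcf7-/- libraries of the 2 gates. Relative to WT it stood 0.32 higher in DN1 (95% interval 0.24 to 0.40) and at -0.20 in DN2-3 (-0.27 to -0.13), a distance of 0.52 on the log2 scale between the gates. The difference itself was not tested, since each gate has 1 library per genotype. G2/M marker-positive cells made up 26.9% of Tcf7-/- and 6.82% of WT cells in DN2-3, and without them the DN2-3 value was 0.19. NK marker-positive cells made up 29.2% of Tcf7-/- and 80.2% of WT cells in DN1. The DN1 value was 0.24 between NK marker-positive cells and 1.06 between NK marker-negative cells, of which WT had 17.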

How the results depend on the processing

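No paired analysis was possible because the replicate numbers of the labels are well barcodes shared by all plates and no result comes from a test. Leaving out G2/M marker-positive cells (added after the data were seen) turned the Tcf7-/- DN2-3 immunoproteasome to constitutive value to 0.19 and that of Lck-cre to -0.14. With NK marker-negative DN1 cells this ratio was 1.06 for Tcf7-/- DN1, 1.41 for Vav-cre DN1 and 0.86 for WT DN2-3 relative to WT DN1, with a list median of 0.080; with NK marker-positive cells the last ratio was -0.084 and the Tcf7-/- DN1 list median -0.17. Averaging the 3 pairs gave ratios of -0.53 (Tcf7-/- DN2-3), -0.25 (Vav-cre DN2-3), -0.35 (Lck-cre), 0.81 (Vav-cre DN1) and 0.22 (WT gates). The deposited log2 values gave -0.32, -0.058, -0.11, 0.81 and 0.32 in that order, 0.65 for Tcf7-/- DN1, and list medians of 0.70 (Tcf7-/- DN2-3), 0.38 (Tcf7-/- DN1) and -0.45 (Vav-cre DN1). The medians of all genes with these values were 0.08 (Tcf7-/- DN2-3), 0.09 (Tcf7-/- DN1) and -0.13 (Vav-cre DN1). List medians in the order Tcf7-/-, Vav-cre and Lck-cre DN2-3 and WT gates were 0.48, 0.19, 0.25 and 0.015 with edgeR TMM scaling and 0.45, 0.21, 0.24 and -0.0039 with DESeq2 size factors. Weighting cells equally gave ratios of 0.61 (Tcf7-/- DN1), 0.10 (Vav-cre DN2-3) and 0.39 (WT gates), and a Vav-cre DN2-3 list median of 0.15. Thinned cells gave ratios of 0.49 (Tcf7-/- DN1), -0.18 (Lck-cre) and 0.45 (WT gates), and a G2/M list median of 0.15. The 2000-gene limit gave 1.06 for Vav-cre DN1, and leaving out each gene's highest cell gave 0.40 for Tcf7-/- DN1 and -0.17 for Lck-cre. Counting G2/M markers from 1 count gave -0.56 for the G2/M ratio; doing so for NK markers left WT DN1 without a value.

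Leaving out 1 Lck-cre plate gave list medians of 0.10 to 0.18 and ratios of -0.24 to -0.20. Leaving out 1 library gave -0.82 to -0.68 for the G2/M ratio, 0.19 to 0.22 for the G2/M list median and 0.12 to 0.53 for the NK ratio, which was lowest without WT.

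Members with all DN2-3 libraries above all DN1 libraries numbered 8 under edgeR TMM scaling (17.8%, where 11.5% of genes did so), 6 of 45 under DESeq2 size factors (against 10.9%), 9 after thinning (19.6%, against 10.2%), 6 of 45 without G2/M marker-positive cells (against 9.60%), 2 with NK marker-negative DN1 cells (4.44%, against 10.1%), 15 without the Vav-cre DN1 library (33.3%, against 15.7%) and 15 without both Tcf7-/- libraries (33.3%, against 19.7%). Those with all below numbered 1 under edgeR TMM scaling (2.22%, against 12.8%) and 1 under DESeq2 size factors (2.22%, against 13.5%), and members lower in every G2/M split numbered 1 after thinning (2.33%, against 12.6%). Over the settings, members 2-fold higher numbered 0 to 9 in Tcf7-/- DN2-3 (2.01% to 6.77% of all genes), 0 to 6 in Tcf7-/- DN1 (3.31% to 23.5%), 0 to 4 in Vav-cre DN1 (1.41% to 27.5%) and 2 to 7 between WT gates (6.93% to 25.8%). Those 2-fold lower numbered 0 to 5 in Tcf7-/- DN1 (1.36% to 14% of all genes), 0 to 6 in Vav-cre DN1 (5.94% to 32.9%) and 0 to 3 in Vav-cre DN2-3 (2.62% to 19.1%). In these ranges the ends of the counts and of the gene shares can come from different settings. The 9 of 44 members higher in Tcf7-/- DN2-3 came from the deposited log2 values, where 4.97% of all genes were higher. The 6 of 44 in Tcf7-/- DN1 and 7 of 44 between WT gates came from NK marker-negative cells, where 23.5% and 25.8% were. Of 51 values of named members at 0.25 or more from 0, 13 changed sign in some setting. Among them were Psmd3 (-0.11 with NK marker-positive cells), Psmd5 (1.55 with NK marker-negative cells) and Psmd13 (-0.23 with NK marker-negative cells) in Tcf7-/- DN1, and Psmd5 (0.66 with NK marker-negative cells) in Vav-cre DN1. Both Psmd5 values rest on 15 counts in NK marker-negative WT DN1 cells. The causes were not tested. Members under about 50 CPM rest on few cells, and intervals omit variation between animals.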
